A study of Homo sapiens with 8 samples.

Results

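The sites described here are promoter sites that HoxC5 occupied in PC-3 cells overexpressing it. They had no HoxC5 peak in PC-3 cells labelled endogenous and no Pbx4 peak in PC-3 cells overexpressing Pbx4. The PC-3 line was established from a human prostate cancer. ChIP-seq with 1 anti-HoxC5 antibody gave 2 libraries of control PC-3 cells, here called endogenous, and 1 library of cells with Hoxc5 overexpression, and an antibody to PBX4 gave 1 library of cells with Pbx4 overexpression. In the study's text the overexpressed HoxC5 carried a Flag tag, and the protein levels in the cells used for ChIP were not measured in the files used here. Each library came with a list of peaks, intervals where its reads piled up above background. A HoxC5 peak of the overexpressing cells was taken as gained where it overlapped no peak of either endogenous list by 1 bp or more, as without Pbx4 where it overlapped no peak of the Pbx4 list, and as a promoter site where its summit lay within 1 kb of the transcription start site (TSS) of a protein-coding transcript. The sites were thus chosen by their peak calls in all 4 lists and by summit position. Of the 67196 overexpressed HoxC5 peaks, 8391 met this rule. Another 4965 gained promoter peaks overlapped a Pbx4 peak, and 465 promoter peaks overlapped an endogenous HoxC5 peak.

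HoxC5 is a homeodomain transcription factor, and Pbx4 belongs to the TALE family of homeodomain cofactors. Hox proteins alone bind short AT-rich sequences, and with a Pbx partner they bind a composite site in which the half-sites of both proteins lie side by side, while Meis proteins, also of the TALE family, add a site of their own. Many promoters of housekeeping genes lie in CpG islands, stretches rich in G, C and CpG dinucleotides, where factors such as SP/KLF, ETS, NRF1, YY1 and NF-Y bind.

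The DNA round the strongest sites shows the kind of sequence in question. The first 8 windows below hold the summit and 50 bp on either side, at the members of highest fold enrichment (peak height over local background) whose window met no annotated exon. They are printed 5′ to 3′ on the plus strand of GRCh37 (hg19), with matches to any of 16 words in capitals on either strand.
MBTPS2, chrX:21857632-21857732: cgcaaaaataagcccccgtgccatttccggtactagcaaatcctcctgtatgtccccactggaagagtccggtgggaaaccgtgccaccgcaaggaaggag
CENPU, chr4:185655383-185655483: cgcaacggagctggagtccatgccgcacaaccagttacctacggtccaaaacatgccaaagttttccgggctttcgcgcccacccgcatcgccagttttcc
TRIP11, chr14:92505758-92505858: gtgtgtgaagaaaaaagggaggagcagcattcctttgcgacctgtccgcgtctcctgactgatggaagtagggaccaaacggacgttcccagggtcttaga
SARS2, chr19:39421443-39421543: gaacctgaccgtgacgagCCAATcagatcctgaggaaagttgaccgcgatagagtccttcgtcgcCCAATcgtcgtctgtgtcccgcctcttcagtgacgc
CPLX2, chr5:175223998-175224098: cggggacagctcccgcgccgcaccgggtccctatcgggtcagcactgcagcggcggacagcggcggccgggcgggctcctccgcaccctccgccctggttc
ZNF658, chr9:40792128-40792228: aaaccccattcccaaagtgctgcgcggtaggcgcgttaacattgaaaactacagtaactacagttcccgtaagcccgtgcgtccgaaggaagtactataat
VPS25, chr17:40925353-40925453: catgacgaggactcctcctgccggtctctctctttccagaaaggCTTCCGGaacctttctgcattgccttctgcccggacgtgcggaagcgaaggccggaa
ADPRS, chr1:36554386-36554486: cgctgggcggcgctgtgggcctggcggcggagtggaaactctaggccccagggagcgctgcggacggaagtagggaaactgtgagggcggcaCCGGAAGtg
None of these 8 windows held a Hox, Hox-Pbx, Meis or AP-1 word. The window at SARS2 held the NF-Y word CCAAT at 2 positions, and those at VPS25 and ADPRS held the ETS word CCGGAAG.

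A further 5 windows are shown because each holds a word that the comparisons turn on. They are, in order, the strongest remaining windows of the same kind with the SP/KLF word CCCCGCCC, the YY1 word AAGATGGC, the CREB/ATF word TGACGTCA, the AP-1 word TGACTCA or TGAGTCA and the Hox-Pbx word TGATTGAT.
DUSP12, chr1:161720163-161720263: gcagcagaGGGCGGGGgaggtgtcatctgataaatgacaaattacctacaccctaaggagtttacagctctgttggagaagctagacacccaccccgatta
TM9SF4, chr20:30697217-30697317: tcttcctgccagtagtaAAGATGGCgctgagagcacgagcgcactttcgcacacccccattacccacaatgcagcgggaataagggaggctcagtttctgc
NF1, chr17:29421823-29421923: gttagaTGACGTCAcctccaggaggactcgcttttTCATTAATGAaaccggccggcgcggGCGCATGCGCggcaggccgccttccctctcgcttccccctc
NAA16, chr13:41885176-41885276: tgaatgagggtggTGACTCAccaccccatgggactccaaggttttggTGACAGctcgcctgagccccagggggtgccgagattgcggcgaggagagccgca
RIN2, chr20:19739547-19739647: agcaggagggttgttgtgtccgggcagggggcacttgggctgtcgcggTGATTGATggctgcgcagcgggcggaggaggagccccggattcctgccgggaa
The NF1 window also held the Hox word TAATGA and the NRF1 word GCATGCGC at 2 positions each, in overlapping copies, and the NAA16 window also held the Meis word TGACAG. These 5 members had folds of 15.1 at DUSP12, 10.2 at TM9SF4, 9.77 at NF1, 12.4 at NAA16 and 15.1 at RIN2. The RIN2 site, with the Hox-Pbx word, lay 68 bp from the nearest Pbx4 peak, and the NF1 site lay 1184 bp from one.

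Promoter sites went without Pbx4 more often than gained sites elsewhere. Of 13356 gained HoxC5 promoter peaks, 62.8% overlapped no Pbx4 peak. Of 51861 gained peaks away from promoters, 12956 (25%) overlapped none. Both shares follow from the values that chose the members, so they are given as a description and were not tested. The Pbx4 list was the longer one, with 153620 peaks against 67196. It also reached a q-value of 0.0490, whereas the overexpressed HoxC5 list ended at 0.00997, so the lists did not share a limit. The endogenous lists held 2525 and 170 peaks. With 1 library per overexpression no site has a replicate, the methods give the depth only as an average range over libraries, so that of each library is unknown, and absence of a listed peak does not show absence of the protein.

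The members were weaker and narrower than the gained promoter peaks shared with Pbx4. The fold enrichment given by the peak caller had a median of 5.36 in the members, with quartiles of 4.44 and 6.65 and a range of 2.29 to 30.9. The median was 6.14 in the peaks shared with Pbx4 and 6.72 in the promoter peaks with an endogenous peak. The median width was 247 bp in the members, 320 bp in the shared peaks and 425 bp in the promoter peaks with an endogenous peak. The median −log10 q was 7.56 in the members and 11.2 in the shared peaks, and 408 members (4.86%) had a value under 3. These differences were not tested, since the values come from the same calls that chose the members.

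When all gained peaks were put into 10 classes of equal size by fold, promoter peaks were without Pbx4 more often than other peaks in each class. In the lowest class, 68.8% of promoter peaks and 30.0% of the others overlapped no Pbx4 peak. In the third class the shares were 71.0% and 31.4%. In the highest class, at folds of 10.6 and above, they had come down to 33% and 8.93%, which left 231 members there.

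**Figure D1:**
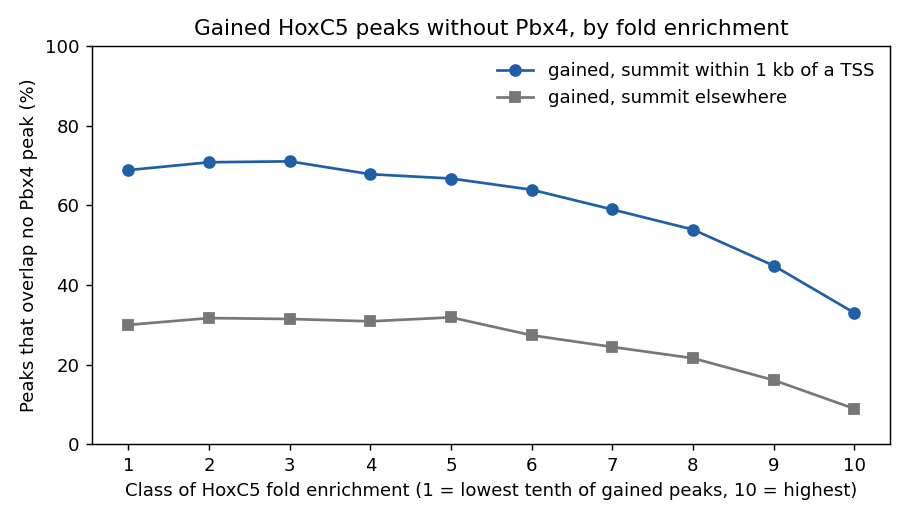
Percentage of gained HoxC5 peaks that overlapped no Pbx4 peak (vertical axis) in 10 classes of HoxC5 fold enrichment from lowest to highest (horizontal axis), for summits within 1 kb of a protein-coding TSS (circles) and elsewhere (squares). The promoter line lies above the other throughout, and both are lowest in the highest class, at 33% and 8.93%.

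Many members lay near one of the 153620 Pbx4 peaks. The median distance from a member to the nearest Pbx4 peak was 2042 bp, with quartiles of 679 and 7892.5 bp. Within 250 bp lay 718 members (8.56%), within 1 kb 2887 (34.4%) and within 10 kb 6670 (79.5%). The same distances were not measured for promoters at large, so these shares are not particular to the members. By another measure, 36.3% of all protein-coding genes had a Pbx4 summit within 1 kb of a TSS. At the edge of the rule, the CKAP2 site touched a Pbx4 peak without overlapping it, and the KIAA2026 peak was left out for an overlap of 1 bp. The SCAF4 site lay 7 bp from an endogenous peak, and the AGRN peak was left out for an overlap of 3 bp. The LHB site lay 999 bp from its TSS, and the LAMA3 peak was left out at 1002 bp.

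The summits gathered at the start site itself. The median position was -25 bp from the nearest protein-coding TSS, negative values being upstream, with quartiles of -120 and 72.5 bp. Of the members, 4163 (49.6%) lay within 100 bp of the TSS, against 40.5% of the gained promoter peaks shared with Pbx4, and 14.9% lay beyond 500 bp, against 22.3%. TSSs on both strands within 1 kb, as at a bidirectional promoter, were found at 12.4% of members and 9.47% of shared peaks (two-sided Fisher's exact test, adjusted p = 2.16e-07). The summit lay upstream of its TSS at 60.1% of members and 65.2% of shared peaks (exact adjusted p = 8.65e-09). These direction calls depended on the choice of sites. With Pbx4 peaks widened by 1 kb the second difference turned, with upstream summits 2.17 percentage points more common in the members (exact adjusted p = 0.0142), and among CpG-rich summits the first was lost at -0.41 points (exact adjusted p = 0.795). By annotation, 29.7% of member summits lay outside protein-coding transcripts and any exon, 26.9% in introns, 25.8% in UTR exons, 6.42% in coding exons and 11.2% in exons of other transcripts. Summits in coding exons were 2.86% of the shared peaks.

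**Figure D2:**
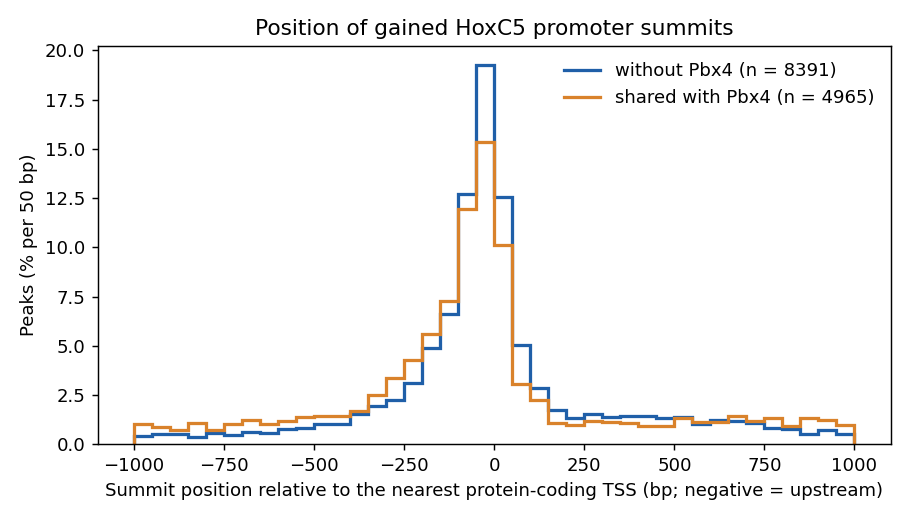
Percentage of summits per 50 bp (vertical axis) by position relative to the nearest protein-coding TSS in bp (horizontal axis, negative upstream), for gained HoxC5 promoter peaks without Pbx4 (n = 8391) and shared with Pbx4 (n = 4965). Both peak just upstream of the TSS, and the peaks without Pbx4 rise higher there, with 49.6% against 40.5% within 100 bp.

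Most members lay in CpG-rich sequence. In the 501 bp round the summit the median GC content was 64.7%, against 55.1% at the gained promoter peaks shared with Pbx4. A window was called CpG-rich at a GC content of at least 50% with an observed-to-expected CpG ratio of at least 0.6. By this rule 6888 members (82.1%, exact 95% Clopper-Pearson interval 81.3 to 82.9%) were CpG-rich. The share was 51.5% of the shared peaks (interval 50.1 to 52.9%, Fisher's exact test, adjusted p = 6.14e-302), 56.5% of 78394 windows at all protein-coding TSSs and 10.0% of gained peaks elsewhere without Pbx4. Of the promoter peaks with an endogenous peak 81.9% were CpG-rich. All tests here compare peaks within 1 library and treat peaks as independent, though several can share a promoter. They say nothing of the spread between experiments, and the intervals cover counting error only.

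Of 19 features compared, 7 were more frequent in the members, 9 were less frequent and 3 were not called (two-sided Fisher's exact test, adjusted p under 0.05 after Benjamini-Hochberg). The 16 words were sought within 50 bp of the summit on both strands; they can overlap one another, and a match is a description of the letters and not of a bound factor. The members carried fewer words of Hox proteins and their cofactors than the shared peaks did. Any of the 5 Hox or Hox-Pbx words was found at 281 members (3.35%, interval 2.97 to 3.76%), 7.90% of the shared peaks (interval 7.16 to 8.68%) and 2.78% of all TSS windows. The share was also low, at 2.37% (interval 1.19 to 4.19%), in the promoter peaks with an endogenous peak, which were not tested. The Hox word TAATGA was at 2.16% of members and 5.02% of shared peaks (exact adjusted p = 3.34e-18), and TAATTA at 0.87% and 1.45% (exact adjusted p = 0.00323). The Hox-Pbx word TGATTGAT was at 15 members (0.179%) and 41 shared peaks (0.826%, exact adjusted p = 1.54e-07). The same number of members, 15, held TGATTAAT, against 27 shared peaks (exact adjusted p = 0.000848), and 11 held TGATTTAT, against 25 (exact adjusted p = 0.000154). The Meis word TGACAG was at 3.69% of members and 7.75% of shared peaks (exact adjusted p = 7.98e-23), and at 5.46% of all TSS windows. Promoter peaks with an endogenous peak held it at 4.30%.

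The difference of greatest ratio among the words of 100 or more members was at AP-1. This is the site of the Fos and Jun proteins, and its word TGACTCA or TGAGTCA was at 147 members (1.75%) and 506 shared peaks (10.2%, exact adjusted p = 4.67e-102). All TSS windows held it at 1.24%, promoter peaks with an endogenous peak at 5.81% and gained peaks elsewhere without Pbx4 at 11.3%. The NF-Y word CCAAT was also less frequent in the members, at 12.3% against 17.6% (exact adjusted p = 1.64e-16), though above the 10.1% of all TSS windows.

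Several words of CpG-island promoters went the other way. The SP/KLF word CCCCGCCC was at 994 members (11.8%) and 6.20% of shared peaks (exact adjusted p = 4.92e-27). The ETS word CCGGAAG was at 700 members (8.34%) and 5.86% of shared peaks (exact adjusted p = 1.77e-07). The YY1 word AAGATGGC was at 158 members (1.88%) and 0.685% of shared peaks (exact adjusted p = 9.99e-09). NRF1 and ZBTB33, factors that bind CG-containing words, followed with 1.08% against 0.665% for GCATGCGC (exact adjusted p = 0.0190) and 0.87% against 0.524% for TCTCGCGA (exact adjusted p = 0.0331). Both calls were lost at a promoter limit of 500 bp (exact adjusted p = 0.0652 each) and within 25 bp of the summit (0.199 each). Among CpG-rich summits they were also lost (exact adjusted p = 0.795 and 0.925). At a HoxC5 fold of at least 5 they were kept (exact adjusted p = 0.00351 and 0.0248). Promoter peaks with an endogenous peak held the SP/KLF word at 15.9% and the ETS word at 8.82%. They held the YY1 and NRF1 words at 1.51% each and the ZBTB33 word at 0.43%, and these shares were not tested. The words of CREB/ATF, E-box proteins (CACGTG) and ZNF143 (ACTACAAT) were not called. With a Pbx4 list as short as the HoxC5 list, the CREB/ATF word (0.83 points, exact adjusted p = 0.000925) and the E-box (1.55 points, exact adjusted p = 0.000202) were called more frequent in the members, and they gained a call in 4 and 3 alternatives in all. At all TSS windows the YY1 word (2.28%) and the NRF1 word (1.36%) were more frequent than in the members, and the SP/KLF word (10.1%) and the ETS word (6.23%) less so; these differences were not tested. None of the 16 words was found at 4989 members (59.5%) and 51.3% of shared peaks.

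GC content moved with most of these words. In an alternative chosen after the data were seen, members and shared peaks were compared within 10 classes of GC content by a Mantel-Haenszel chi-square test. There 8 of the 19 features were called, and the SP/KLF word (0.23 percentage points, chi-square adjusted p = 0.74), the ETS word (0.66 points, chi-square adjusted p = 0.304), the NRF1 and ZBTB33 words and the Hox word TAATGA (-0.46 points, chi-square adjusted p = 0.304) lost their calls, as did TAATTA, TGATTAAT and TGATTTAT. Members minus shared peaks, the difference remained called at -5.63 points for the AP-1 word, -4.29 points for the NF-Y word (chi-square adjusted p = 7.01e-09), -3.01 points for the Meis word (chi-square adjusted p = 2.31e-10) and -0.48 points for the Hox-Pbx word TGATTGAT (chi-square adjusted p = 0.00178). The YY1 word remained more frequent in the members by 1.10 points (chi-square adjusted p = 1.42e-05), and CpG-rich sequence by 3.55 points (chi-square adjusted p = 8.21e-07). In the class of lowest GC content, the AP-1 word was at 4.14% of 290 members and 18.9% of 1045 shared peaks. The shares in the class of highest GC content were 0.901% of 1221 members and 1.74% of 115 shared peaks.

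Each summit was also compared with its own flank, the same length of sequence 1 kb to the right. Of the 16 words, 8 were more frequent at the summits, 4 were less frequent and 4 were not called (two-sided exact McNemar test, adjusted p under 0.05). The ETS word was at 8.34% of summits and 0.763% of flanks (exact adjusted p = 5.81e-136). For the SP/KLF word the shares were 11.8% and 2.59% (exact adjusted p = 4.50e-125). The CREB/ATF word was at 109 summits and 4 flanks (exact adjusted p = 6.86e-27), the ZBTB33 word at 73 and 1 (exact adjusted p = 3.18e-20), and the YY1 word at 158 and 35 (exact adjusted p = 1.38e-19). The Hox words were less frequent at the summits, TAATGA at 2.16% against 3.55% of flanks (exact adjusted p = 1.39e-07) and TAATTA at 0.87% against 2.53% (exact adjusted p = 1.08e-16). Closer to the summit the picture was finer: the 5 Hox and Hox-Pbx words together occurred 0.36 and 0.379 times per 1000 bp in the 50-bp bins on either side of member summits, against 0.226 and 0.274 in the next bins out. At the shared peaks these values were 0.854 and 0.918, against 0.636 and 0.653. In the outermost bins, 450 to 500 bp from the summit, the values were 0.479 and 0.441 for the members, above their summit bins. For the shared peaks they were 0.677 and 0.673, below their summit bins. The local rise at the summits was not tested. Among the Hox-Pbx words, TGATTTAT was at 11 summits and 29 flanks (exact adjusted p = 0.00857), and the other 2 were not called. The AP-1 word was at 1.75% of summits and 1.20% of flanks (exact adjusted p = 0.00522), a call that was lost in 4 of 5 alternatives. The difference was 0.38 points with the left flank (exact adjusted p = 0.0634), 0.26 points within 25 bp (exact adjusted p = 0.0868), 0.41 points within 100 bp (exact adjusted p = 0.127) and -0.22 points among CpG-rich summits (exact adjusted p = 0.297). The median GC content was 66.3% within 50 bp of the summits and 49.5% in the flanks, and its part in these differences was not tested.

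**Figure D3:**
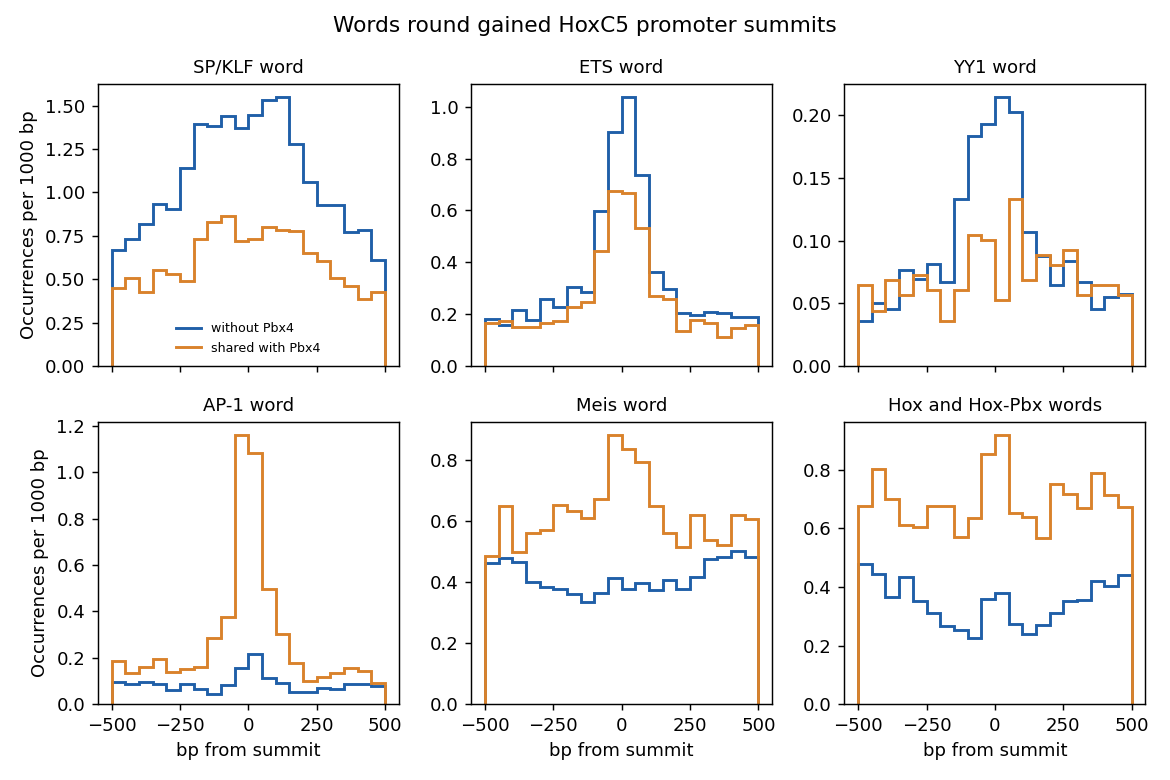
Occurrences per 1000 bp (vertical axes, each from 0 with its own scale) of 6 kinds of word by distance from the summit in bp (horizontal axes, 50-bp bins), for gained HoxC5 promoter peaks without Pbx4 and shared with Pbx4. The ETS word peaks at the summits of both classes (up to 1.04 per 1000 bp without Pbx4 and 0.677 shared with it), and the AP-1 word reaches 1.16 per 1000 bp at the shared summits and 0.217 at those without Pbx4.

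The members were not uniform. Within 100 bp of the TSS, 91.7% were CpG-rich, 13.6% held the ETS word and 15.1% the SP/KLF word. In members more than 100 bp downstream of the TSS, 67.4% were CpG-rich, 2.14% held the ETS word, 6.10% the SP/KLF word and 4.01% the Hox word TAATGA. Above the upper quartile of fold 12.7% of members held the ETS word, against 6.15% up to the lower quartile, and the SP/KLF word was at 13.2% and 10.1%. The 1503 members (17.9%) outside CpG-rich sequence held the AP-1 word at 5.46%, against 0.944% of those inside it, and TAATGA at 5.06% against 1.52%. The members more than 10 kb from a Pbx4 peak held the ETS word at 12.0% and those under 1 kb from one at 6.79%. These subsets are described without a test.

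The strongest member lay at AP3M2, which encodes a subunit of the AP-3 vesicle adaptor, at chr8:42010170-42010785. Its fold was 30.9 with a −log10 q of 85.4, it ranked 52nd by fold among all overexpressed HoxC5 peaks, and its summit lay 17 bp upstream of the TSS. MBTPS2, a membrane protease of the sterol response, had a site of fold 26.0 at chrX:21857475-21858019. DNAJC24, a cochaperone of diphthamide synthesis, had one of fold 24.6, and KANSL3, of a histone acetyltransferase complex, one of 21.3. The nearest Pbx4 peak lay 1770 bp away at AP3M2, 32123 bp at MBTPS2, 13539 bp at DNAJC24 and 276 bp at KANSL3.

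The next members lay at genes of varied function. The ubiquitin ligase gene MKRN2 had a fold of 20.6, the kinetochore gene CENPU 20.5, the mitochondrial deubiquitinase gene USP30 20.4 and the homeobox gene RHOXF1 19.3. TRIP11, a Golgi protein, had a site 595 bp into the gene with a fold of 19.1, and WDR11 had one of 19.0. One peak of fold 19.0 lay between SARS2, the mitochondrial seryl-tRNA synthetase, and MRPS12, a mitochondrial ribosomal protein on the other strand. The remaining 9 of the 20 strongest ran from 18.9 at the topoisomerase gene TOP3B to 16.4 at METTL25, through the synaptic gene CPLX2, ZNF658, COPS2 of the COP9 signalosome, VPS25 of the ESCRT machinery, CUL4A, the respiratory chain gene NDUFS3 and ADPRS. Among these 20 the summit lay within 100 bp of the TSS in all but CENPU, TRIP11 and CPLX2.

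The members reached 7489 of 19748 protein-coding genes (37.9%). For 5641 of these (75.3%) no other kind of overexpressed HoxC5 promoter peak lay within 1 kb of a TSS, and 1719 also had a gained peak shared with Pbx4. A Pbx4 summit lay within 1 kb of a TSS in 3014 member genes (40.2%) and in 36.3% of all genes, so a promoter with a member was not thereby a promoter without Pbx4. More than 1 member lay at 1760 genes, and 1191 members lay at more than 1 gene. PLEC, which encodes a cytoskeletal linker, had 9 members over 13 distinct TSSs, with folds from 3.66 to 8.76. The transcription factor gene FOXP1 had 6 over 33 TSSs, and the splicing regulator gene HNRNPF 6 over 7. CYRIB, ECE1, RUNX2, TFAP2A and TRIM8 had 5 each. Genes with a member had a median of 4 distinct TSSs and the other genes 2. By chromosome, the share of genes with a member ran from 25.4% on X to 44.7% on 18.

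Genes for the protein synthesis machinery held members often. Beside the 37.9% of all protein-coding genes, members lay at 65 of 86 cytosolic ribosomal protein genes (75.6%, interval 65.1 to 84.2%). The strongest were at RPL37 (fold 15.3), RPS6 (14.4), RPS18 (13.1) and RPL38 (13.0). Of 78 mitochondrial ribosomal protein genes 52 (66.7%) had one, with MRPS31 at a fold of 14.7. Aminoacyl-tRNA synthetases, which charge tRNAs, had members at 24 of 37 genes, and translation initiation factors at 33 of 55, led by EIF2B4 with a fold of 14.4. A gained site shared with Pbx4 was found at 21 cytosolic ribosomal protein genes (24.4%), close to the 22.5% of all protein-coding genes. That share was higher in the other lists of this group. It was 33.3% for mitochondrial ribosomal proteins, 40.5% for aminoacyl-tRNA synthetases and 47.3% for initiation factors.

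Other housekeeping lists also stood above the share of all genes. Respiratory chain and ATP synthase subunits had members at 49 of 83 genes (59.0%), among them NDUFS8 with a fold of 14.4 and ATP5MJ with 12.7. Proteasome subunits and assembly factors had them at 29 of 48 genes, with PSMG3 at 12.1, spliceosome and splicing proteins at 45 of 72, with HNRNPA2B1 at 14.4 and PRPF8 at 12.4, and RNA polymerase subunits at 21 of 30, with POLR2I at 9.96. General transcription factors and Mediator subunits had them at 40 of 68 genes, with TAF11 at 9.24. DNA replication proteins had them at 32 of 43 genes (74.4%, interval 58.8 to 86.5%), with ORC4 at 10.6 and MCM10 at 10.4, and DNA repair and checkpoint proteins at 25 of 46, with ATR at 13.1. Gained sites shared with Pbx4 were also more frequent in these lists than the 22.5% of all genes, at 43.8% of proteasome, 37.5% of splicing, 34.9% of replication, 33.8% of general transcription factor, 26.7% of RNA polymerase, 26.5% of respiratory chain and 26.1% of repair genes. C2H2 zinc finger genes named ZNF stood nearer to all genes, at 233 of 508 (45.9%), as did cyclins and cyclin-dependent kinases at 20 of 46 (43.5%), CDK1 among them with a fold of 9.24.

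**Figure D4:**
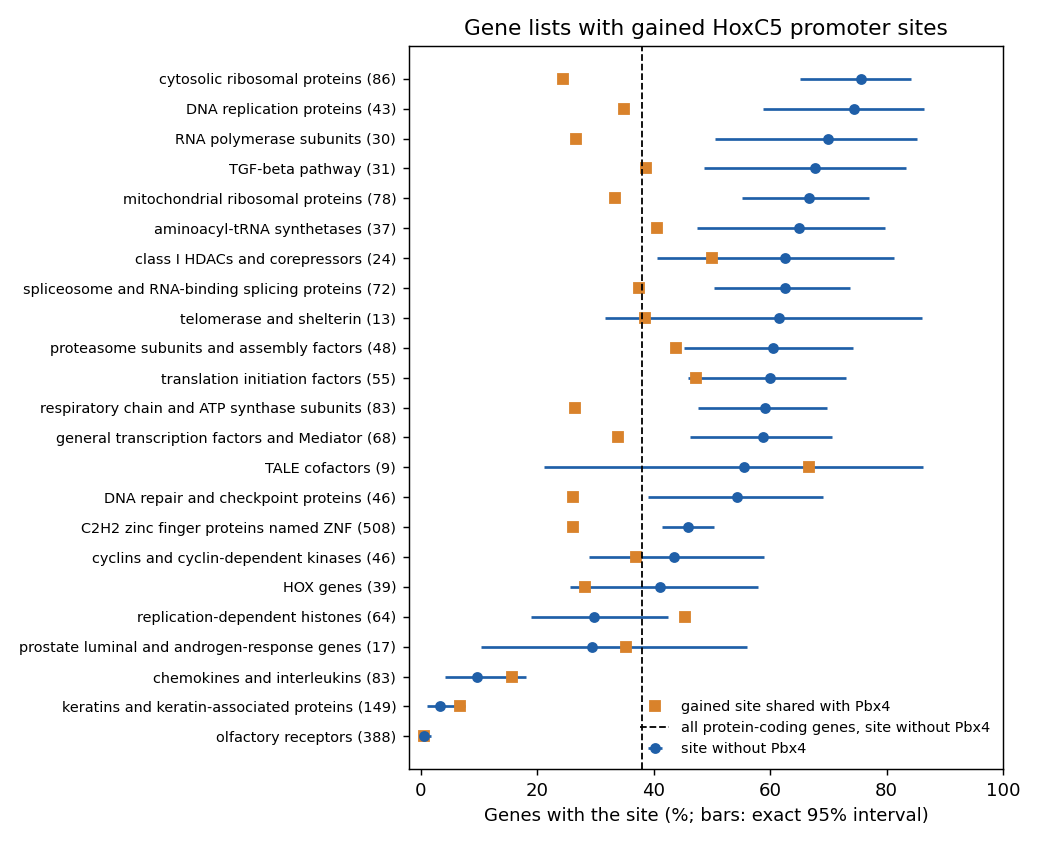
Percentage of the genes in each of 23 lists (number of genes in brackets) with a gained HoxC5 promoter site without Pbx4 (circles, with exact 95% intervals) or shared with Pbx4 (squares) within 1 kb of a TSS. The dashed line marks the 37.9% of all protein-coding genes with a site without Pbx4; cytosolic ribosomal proteins lie highest at 75.6% and olfactory receptors lowest at 0.515%.

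Genes of the Hox system and of the study's question were mixed. Of 39 HOX genes 16 (41.0%, interval 25.6 to 57.9%) had a member, a share near the 37.9% of all protein-coding genes, the strongest at HOXA11 (fold 7.74), HOXA7 (7.40), HOXC10 (7.37) and HOXA13 (6.73). Of 9 TALE cofactor genes 5 had one, PBX2 with a fold of 5.66, MEIS1 with 5.50, PKNOX1 with 4.89 and MEIS2 with 4.41 among them, and PBX4 had none. HOXC5 itself had a member at chr12:54426889-54427499, with its summit in the coding exon 177 bp from the TSS and a fold of 4.44. It was the only peak over the HOXC5 gene in the 4 lists, and the nearest Pbx4 peak lay 98 bp from it, outside the gene. An expression construct for HoxC5 carries this coding sequence too, and its part in the peak was not tested. TERT, which encodes the telomerase reverse transcriptase, had no peak over the gene in any of the 4 lists. The study reports HoxC5 and Pbx4 binding at an enhancer upstream of TERT. That region lies outside the gene and was not examined here. Of 13 telomerase and shelterin genes 8 had a member, among them TERF2IP (fold 9.44, a peak it shares with KARS1), ACD (6.58), the dyskerin gene DKC1 (5.80) and WRAP53 (5.60). The TGF-β pathway list had members at 21 of 31 genes (67.7%, interval 48.6 to 83.3%), led by the ligand TGFB3 (13.7) and the receptors ACVR1 (10.5), TGFBR3 (9.97) and BMPR1B (8.97). Without a member were TGFBR1, TGFBR2, ACVR2A, ACVR2B, SMAD2, SMAD4, SMAD5, SMAD7, SMAD9 and BMP2. At 9 of the 21 genes no other kind of overexpressed HoxC5 promoter peak lay within 1 kb of a TSS. The TGFB3 site lay 157 bp from the nearest Pbx4 peak. Class I HDACs and their corepressors had members at 15 of 24 genes, with RBBP7 at 8.42. Gained sites shared with Pbx4 lay at 28.2% of HOX genes, 6 of 9 TALE cofactor genes, 5 of 13 telomerase and shelterin genes, 38.7% of the TGF-β list and 50% of the HDAC list, beside 22.5% of all genes.

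The lists of tissue-restricted genes and of replication-dependent histone genes lay lower. Members were found at 2 of 388 olfactory receptor genes (0.515%), 5 of 149 keratin and keratin-associated protein genes (3.36%) and 8 of 83 chemokine and interleukin genes (9.64%). The strongest in the keratin list were at KRT8 (fold 10.2), KRT15 (9.72), KRT18 (9.39) and KRTAP21-3 (7.69). Replication-dependent histone genes had members at 19 of 64 (29.7%) and a gained site shared with Pbx4 at 29 (45.3%). Shared sites also outnumbered members among keratins (10 genes against 5) and among chemokines and interleukins (13 against 8), the reverse of the order in all genes. Among the histone genes H1-4 had the strongest member, with a fold of 12.3. Of 17 prostate luminal and androgen-response genes 5 had a member, FKBP5 with a fold of 6.57 among them, and 6 had a shared site. These counts were not tested, since the lists and the members were chosen with results of these data known.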

How the data were processed

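ChIP-seq peak lists of 4 libraries were analysed; the 4 input libraries were not analysed here. Per the labels and the study's methods, the authors aligned the reads with BWA-MEM (build hg19), dropped duplicates and poorly mapped reads, and ran MACS2 on each library. The version and the control of each call are not given in the sources used here. The deposited lists give each peak's fold (a ratio to local background), −log10 p and −log10 q, an integer score made from q, and the summit. Read depth is not in the lists, so the precision it gives is unknown.

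Positions were compared with GENCODE 44 lifted to GRCh37, and all peaks lay within GRCh37 chromosome ends. Fisher's exact tests covered 19 features and McNemar tests 16 words, each with Benjamini-Hochberg adjustment. Both were run on simulated data with known differences, where false calls were counted for Fisher's test only. Named were the 20 members of highest fold, up to 4 genes per list, the genes with most members and the peaks at each threshold. The 5 windows printed for their words were added after their values were seen. The members and lists were chosen with earlier results of these data known, and the patterns for aminoacyl-tRNA synthetases and general transcription factors were corrected after the genes they matched were seen. Alternatives were other promoter limits, Pbx4 and HoxC5 filters, overlap, word windows, flanks and classes of fold, GC and distance. Python 3.11.15, scipy 1.17.1, statsmodels 0.14.6 and pysam 0.24.0 were used.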

Additional observations from a re-analysis of the deposited data

Results flagged for a closer look

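Of the overexpressed HoxC5 peaks, 27 lay outside chromosomes 1 to 22 and X and entered no comparison. They are listed as a signal in data that the comparisons did not use. The Pbx4 list held 69 such peaks, and the endogenous lists 5 in replicate 1 and 0 in replicate 2.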

How the results depend on the processing

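The number of members was 5504 with Pbx4 peaks widened by 1 kb, 5051 at a HoxC5 fold of at least 5 and 2629 at a −log10 q of at least 10, where the number of genes was 2903. The number of differing features was 9 among CpG-rich summits and 8 within 10 classes of GC, the latter added after the data were seen. The other 38 recomputed counts stayed within 1.5 times the reported ones. Without endogenous replicate 1 the members numbered 8629 and without replicate 2 8391, with 7671 and 7489 genes and 16 differing features each time.

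Of the differences from shared peaks and from flanks, recomputed under each alternative, 346 kept direction and side of the threshold, 27 lost their call, 12 gained one and 17 turned. In percentage points, the upstream summits turned to 2.17 (Pbx4 widened by 1 kb) and 1.75 (−log10 q of at least 10). Among CpG-rich summits, differences from shared peaks turned to -0.15 for ETS, -0.041 for CREB/ATF, -0.46 for the E-box and -0.41 for TSSs on both strands, and the AP-1 difference from the flank to -0.22. Within GC classes TAATTA turned to 0.37, CREB/ATF to -0.065 and the E-box to -0.35. With words sought within 25 bp, CREB/ATF turned to -0.0047, and against the flank TGATTAAT to 0.012, TGATTGAT to 0.060 and ZNF143 to -0.012. Within 100 bp, NF-Y against the flank turned to -0.48, with the left flank TGATTGAT to 0.024, and with a Pbx4 list as short as the HoxC5 list ZNF143 to -0.082. The cause of these turns was not tested. No paired analysis was possible because the inputs, which alone share replicate numbers in the labels with the endogenous ChIP libraries, have no peak lists among the files used here.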

Other observations

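Outside CpG-rich sequence, the strongest members lay at TRIP11 (fold 19.1), the ribosome assembly GTPase gene LSG1 (16.1), SEL1L of endoplasmic reticulum quality control (15.4) and LANCL2 (14.1), names chosen after their values were seen. The nearest Pbx4 peak lay 775 bp away at TRIP11, 9681 bp at LSG1, 4169 bp at SEL1L and 12424 bp at LANCL2.

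The TSS of a lncRNA lay within 1 kb of 1851 member summits (22.1%) and of 19.3% of the gained promoter summits shared with Pbx4. The share of gained promoter peaks without Pbx4 ran from 47.4% on chromosome 14 to 74.2% on chromosome 22.

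The peak caller gave the same pair of fold and −log10 q to many peaks: 8137 members (97.0%) had a pair that another overexpressed HoxC5 peak also had, as CPLX2 and ZNF658 did at 17.9 and 39.3. Ranks by fold are therefore tied in part.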
